A study of Mus musculus with 24 samples.

Results

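Gabra3, Gria4, Adcyap1r1 and Gria3 are genes of neurotransmitter and neuropeptide receptors that were read in cultured mouse fat cells. They were picked by name as 4 of the 53465 genes listed, with the difference between aKO and Cont siNS cultures known from these same data. All 4 had enough reads to be tested. Their genotype values with siNS are therefore a description with no test, and so is any difference with one of these values as a term. The genotype contrasts under siC/EBPb compare none of the siNS libraries. The fit behind them still shares its gene filter, scaling and estimate of spread with those libraries, so their p-values depend on them in part. The siC/EBPb and depot contrasts compare siNS libraries directly, and their tests are not independent of the choice.

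Gabra3 encodes the alpha3 subunit of GABA-A receptors, chloride channels opened by the inhibitory transmitter GABA. Gria3 and Gria4 encode GluA3 and GluA4, subunits of AMPA receptors, the cation channels that carry fast excitatory transmission by glutamate. Adcyap1r1 encodes PAC1, a class B receptor that binds the neuropeptide PACAP and couples to Gs and adenylyl cyclase, so that ligand raises cAMP. In fat cells cAMP is best known as the messenger through which sympathetic nerves drive lipolysis and heat production. Ion channel receptors of this kind are known mainly from the nervous system.

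Adipocytes were differentiated from stromal vascular cells, the non-fat cells released from adipose tissue, of epididymal (eWAT) and inguinal (iWAT) white fat. The aKO cultures came from Senp2flox/flox mice that also carried Adipoq Cre. The Cont cultures came from Senp2flox/flox mice without Cre. SENP2 is a protease that removes SUMO from proteins, and Adipoq Cre acts in cells that have turned on Adipoq, so cells that did not differentiate keep the gene. Each culture received an siRNA against C/EBPβ (siC/EBPb), a transcription factor of early fat cell differentiation, or siNS, a name the labels do not explain. All cultures were induced for 2 days with dexamethasone, 0.5 mmol/l IBMX and 0.1 mg/ml insulin and kept for 5 more days with 1 µg/ml insulin. The groups were aKO siC/EBPb, aKO siNS, Cont siC/EBPb and Cont siNS in each depot, with 3 libraries each and 24 in all. The labels do not give the age or sex of the mice, nor whether replicates were separate animals or cultures, so p-values measure the spread between these samples, which may be technical.

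Between 8435494 and 15388744 reads fell on genes in 23 of the libraries. The library iWAT aKO siNS replicate 2 stood apart with 603585, and 93.3% of its reads were not aligned, against 16.8% to 27.6% in the others. One count was worth 1.98 CPM there, and 0 counts allow a level of up to 5.93 CPM (counting error only), so results that use it are also given without it. Levels are in CPM, the share of a library's gene counts scaled by TMM. Log2 fold changes are given ± SE, and every group has n = 3. A rise or fall is stated where the Benjamini-Hochberg adjusted p of edgeR's quasi-likelihood (QL) test was under 0.05. Cebpb itself fell with siC/EBPb in each depot and genotype, by 2.47 ± 0.17 in aKO and 1.73 ± 0.16 in Cont of eWAT and by 2.69 ± 0.19 and 1.79 ± 0.17 in iWAT on the log2 scale (edgeR QL adjusted p from 3.22e-10 to 6.96e-08). Under siC/EBPb it was also lower in aKO than in Cont, by -0.88 ± 0.17 and -0.97 ± 0.19 (edgeR QL adjusted p = 0.00134 in eWAT and 0.00155 in iWAT). Senp2 was at 47.6 ± 4.82 CPM in eWAT aKO siNS and 54.5 ± 2.35 CPM in eWAT Cont siNS (mean ± SD). Its log2 fold changes of aKO over Cont were -0.20 in eWAT and -0.06 in iWAT with siNS. Under siC/EBPb they were 0.09 in eWAT and 0.06 in iWAT. None was called (edgeR QL adjusted p = 0.0519, 0.688, 0.509 and 0.731). The count of Senp2 sums reads over the whole gene, and which part was deleted was not looked up. The genotype labels were therefore not checked by it.

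The 4 genes lie apart in the genome (GRCm38, GENCODE M21). Gabra3 (ENSMUSG00000031343) spans chrX:72432681-72656848 on the minus strand with 11 merged exons, and Gria3 (ENSMUSG00000001986) spans chrX:41400854-41678601 on the plus strand with 17. Gria4 (ENSMUSG00000025892) spans chr9:4417896-4796234 on the minus strand with 19 exons. Adcyap1r1 (ENSMUSG00000029778) spans chr6:55451978-55501451 on the plus strand with 18. The genes that overlap them are small RNAs and pseudogenes with at most 4 counts over the 24 libraries. Of the 50-base words in their transcripts, Gabra3 and Adcyap1r1 shared 0 of 3907 and 0 of 6884 with 42 other receptor genes, Gria4 10 of 6276 and Gria3 12 of 9934.

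The 250 bases before the start are shown for the 3 genes that were lower in aKO under either siRNA and fell with siC/EBPb in Cont. The promoter source used here had no window for Gria3, so these windows could not be set beside that of Gria3. The sequences are from RefSeq (GRCm38.p6), each written on the strand of its gene, and capitals mark the pentamer CCAAT, or ATTGG where it lies on the other strand. They cover chrX:72656808-72657057, chr9:4796235-4796484 and chr6:55451728-55451977.
Gabra3: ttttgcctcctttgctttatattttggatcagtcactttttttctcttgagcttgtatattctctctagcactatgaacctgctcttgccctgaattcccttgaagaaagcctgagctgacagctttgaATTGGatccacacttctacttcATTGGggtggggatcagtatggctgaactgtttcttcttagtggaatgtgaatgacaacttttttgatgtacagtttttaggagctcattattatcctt
Gria4: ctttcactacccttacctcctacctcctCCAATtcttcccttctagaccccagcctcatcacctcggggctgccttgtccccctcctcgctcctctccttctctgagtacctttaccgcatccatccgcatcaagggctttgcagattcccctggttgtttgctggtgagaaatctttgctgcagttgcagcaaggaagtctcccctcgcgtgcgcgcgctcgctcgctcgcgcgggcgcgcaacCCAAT
Adcyap1r1: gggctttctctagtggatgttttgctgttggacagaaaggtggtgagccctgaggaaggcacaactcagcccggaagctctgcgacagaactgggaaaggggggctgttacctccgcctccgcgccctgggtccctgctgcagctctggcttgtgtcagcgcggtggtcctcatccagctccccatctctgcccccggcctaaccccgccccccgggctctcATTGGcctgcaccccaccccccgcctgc
A C/EBP-type motif, searched as TTNNGNAA on both strands, had no match in these windows, and 36.8% of 32817 mouse promoter windows of the same length held one. The cAMP response element TGACGTCA had no match either and is in 1.55% of the windows. CCAAT, which is in 33.8% of the windows on either strand, was found in each. It lay 121 to 117 and 99 to 95 bases upstream of Gabra3, 222 to 218 and 5 to 1 bases upstream of Gria4 and 28 to 24 bases upstream of Adcyap1r1. These matches describe letters and not binding. The windows also differ in base composition, with 39.2% G or C at Gabra3, 58.8% at Gria4 and 65.6% at Adcyap1r1. The Gabra3 window is the nearer of 2 in the RefSeq table and starts 41 bases from the GENCODE start.

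**Figure D1:**
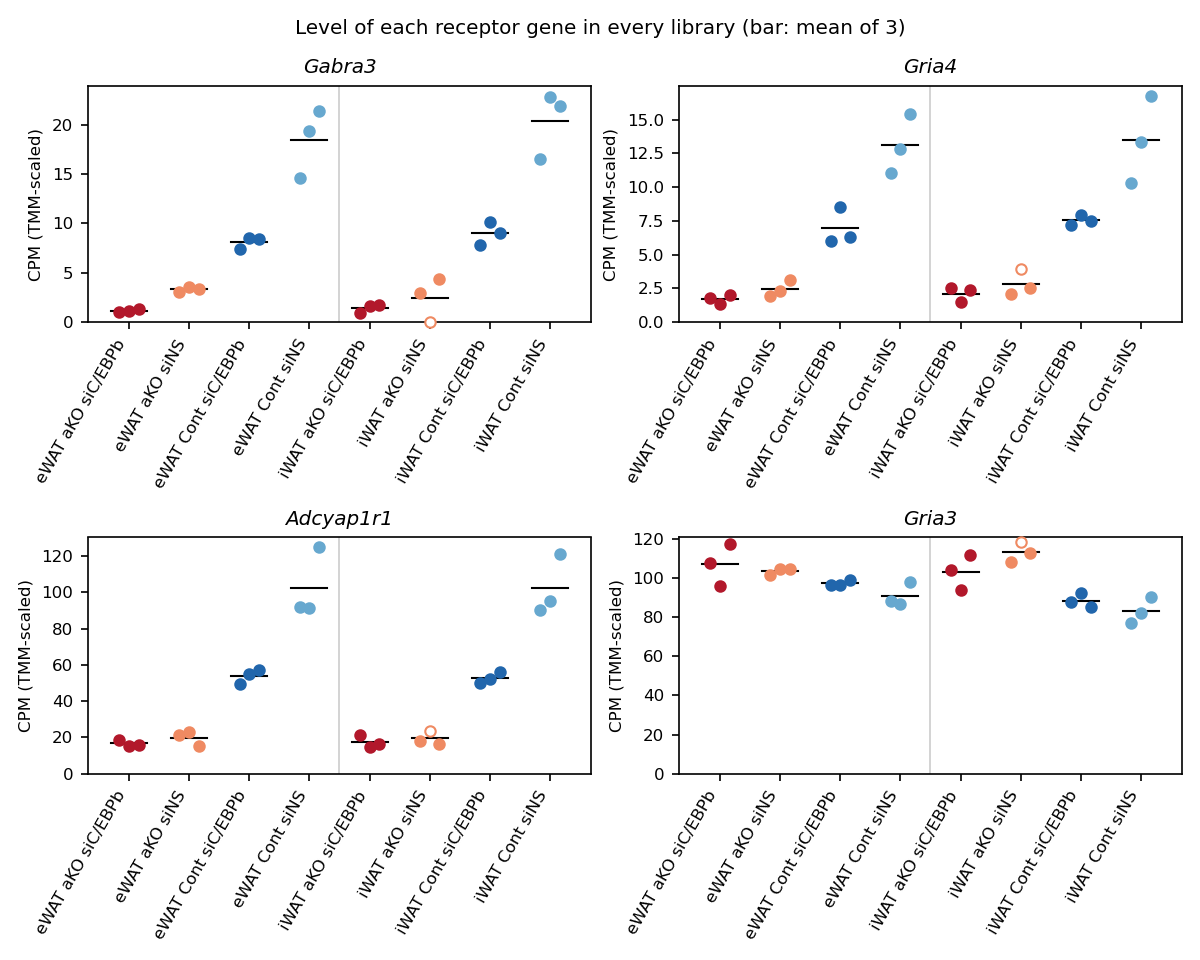
Level of Gabra3, Gria4, Adcyap1r1 and Gria3 in each of the 24 libraries (y axis, CPM scaled by TMM; bars, means of 3; open circle, iWAT aKO siNS replicate 2). Gabra3, Gria4 and Adcyap1r1 are lower in aKO than in Cont under either siRNA, and lower in Cont siC/EBPb than in Cont siNS, while Gria3 lies between 77.1 and 119 CPM throughout.

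Gabra3 was low in aKO cultures under either siRNA, and it was the one of the 4 that also fell with siC/EBPb within aKO. In eWAT treated with siC/EBPb it was at 1.05, 1.11 and 1.31 CPM in aKO, from 15 to 19 counts a library, and at 7.41, 8.53 and 8.46 CPM in Cont, from 112 to 129 counts. In iWAT treated with siC/EBPb it was at 0.919, 1.62 and 1.77 CPM in aKO and at 7.80, 10.2 and 9.00 CPM in Cont. The libraries of the genotypes did not overlap in either depot. Gabra3 fell in aKO by 2.80 ± 0.24 in eWAT and by 2.65 ± 0.24 in iWAT on the log2 scale (edgeR QL adjusted p = 4.26e-09 and 9.53e-09), to 0.143 and 0.159 of the Cont level. In these contrasts 6.87% and 6.51% of all tested genes were called lower, and 0.291% and 0.338% of them had a lower log2 fold change than Gabra3. In the same eWAT contrast 8 of 8 tested leukocyte markers and 5 of 6 mesothelial markers were also called lower. In bulk RNA, fewer cells of a type and less RNA per cell cannot be told apart.

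With siNS, the treatment on which the genes were chosen, Gabra3 was at 3.08, 3.59 and 3.37 CPM in eWAT aKO and at 14.6, 19.3 and 21.4 CPM in eWAT Cont. In iWAT it was at 2.93, 0 and 4.41 CPM in aKO, the 0 being the shallow library, and at 16.5, 22.8 and 21.9 CPM in Cont. The log2 fold changes were -2.45 and -2.48 in eWAT and iWAT, and -2.45 in iWAT without the shallow library. They are given with no test. With siNS, 10.9% of genes in eWAT and 7.85% in iWAT were called lower in aKO, and 9.50% and 7.32% higher.

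Within one genotype, siC/EBPb lowered Gabra3 in aKO as well as in Cont. These contrasts share their siNS libraries with the one on which the genes were chosen. In aKO it fell by 1.53 ± 0.28 in eWAT and 1.33 ± 0.31 in iWAT on the log2 scale, and in Cont by 1.18 ± 0.15 and 1.16 ± 0.16 (edgeR QL adjusted p = 8.82e-05, 0.00122, 7.62e-07 and 2.23e-06). The iWAT aKO value was -1.36 without the shallow library and -0.93 without iWAT aKO siNS replicate 3, where the edgeR QL adjusted p was 0.0855. Groups overlapped in that contrast through the 0 of the shallow library, and did not overlap in the other 3. Lower calls were 19.1% of genes in aKO eWAT, 17.7% in aKO iWAT, 14.9% in Cont eWAT and 14.0% in Cont iWAT, so a fall with siC/EBPb was frequent among all genes. Relative to the mean of Cont siNS, Gabra3 in eWAT stood at 6.27% in aKO siC/EBPb, 18.1% in aKO siNS and 44.1% in Cont siC/EBPb. In iWAT the shares were 7.04%, 18.0% (without the shallow library) and 44.1%.

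Gria4, the AMPA receptor subunit GluA4, had the lowest level of the 4 per kilobase and was also low in aKO. In eWAT with siC/EBPb it was at 1.77, 1.33 and 2.01 CPM in aKO and at 6.02, 8.53 and 6.33 CPM in Cont. In iWAT with siC/EBPb it was at 2.53, 1.48 and 2.36 CPM in aKO and at 7.23, 7.95 and 7.47 CPM in Cont. No library of one genotype reached the range of the other. The fall in aKO was 2.02 ± 0.23 in eWAT and 1.84 ± 0.23 in iWAT on the log2 scale (edgeR QL adjusted p = 5.41e-07 and 2.61e-06). With siNS it was at 1.92, 2.30 and 3.11 CPM in eWAT aKO and at 11.1, 12.8 and 15.4 CPM in eWAT Cont (log2 fold change -2.40). The iWAT siNS levels were 2.07, 3.96 and 2.51 CPM in aKO, where 3.96 rests on 2 counts, and 10.3, 13.4 and 16.7 CPM in Cont (log2 fold change -2.50, and -2.53 without the shallow library).

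Gria4 fell with siC/EBPb in Cont, and no response was called in aKO. These contrasts share the siNS libraries on which the genes were chosen. A choice on a low aKO over Cont siNS value favours a fall in Cont and works against one in aKO. The p-values below carry that bias, and a call in Cont alone does not test a difference between the genotypes. In Cont it fell by 0.91 ± 0.17 in eWAT and 0.81 ± 0.18 in iWAT on the log2 scale (edgeR QL adjusted p = 0.000102 and 0.000936), and the libraries did not overlap. Its aKO log2 fold changes stood at -0.53 ± 0.28 and -0.15 ± 0.32 (edgeR QL adjusted p = 0.150 and 0.771), with 95% intervals from -1.10 to 0.05 and from -0.81 to 0.50, and the libraries overlapped. The response in aKO minus that in Cont was 0.38 ± 0.33 in eWAT and 0.65 ± 0.36 in iWAT, given with no test because the siNS genotype difference is one of its terms. From 18 to 48 counts a library stood behind the eWAT aKO values, which limits how small a change could be seen.

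Adcyap1r1, the PACAP receptor gene, had the highest level of the 4 per kilobase in Cont siNS and was low in aKO. In eWAT with siC/EBPb it was at 18.8, 15.5 and 15.8 CPM in aKO and at 49.5, 55.0 and 57.0 CPM in Cont. In iWAT with siC/EBPb it was at 21.5, 14.5 and 16.4 CPM in aKO and at 50.1, 52.3 and 55.9 CPM in Cont. The genotypes were apart in both depots, and the fall in aKO was 1.69 ± 0.16 and 1.60 ± 0.17 on the log2 scale (edgeR QL adjusted p = 3.16e-07 and 1.12e-06). With siNS it was at 21.4, 23.1 and 15.2 CPM in eWAT aKO and at 92.0, 91.2 and 125 CPM in eWAT Cont (log2 fold change -2.37). In iWAT the siNS levels were 18.2, 23.7 and 16.7 CPM in aKO, with 23.7 from 12 counts of the shallow library, and 90.1, 95.4 and 121 CPM in Cont (log2 fold change -2.53, and -2.55 without that library).

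Adcyap1r1 also fell with siC/EBPb in Cont, and in aKO no response was called. Both contrasts use the siNS libraries on which the gene was chosen. That choice favours a fall in Cont and works against one in aKO, so the p-values below carry its bias. The fall in Cont was 0.93 ± 0.14 in eWAT and 0.95 ± 0.14 in iWAT on the log2 scale (edgeR QL adjusted p = 2.42e-05 and 3.43e-05), with no overlap. Its aKO log2 fold changes stood at -0.24 ± 0.18 and -0.01 ± 0.21 (edgeR QL adjusted p = 0.314 and 0.971), with 95% intervals from -0.61 to 0.13 and from -0.44 to 0.41. The response in aKO minus that in Cont was 0.69 ± 0.23 in eWAT and 0.93 ± 0.25 in iWAT, or 0.96 in iWAT without the shallow library. It equals the genotype difference under siC/EBPb minus that with siNS, on which the gene was chosen, and a gene chosen for a low siNS value tends to a positive one, so it is a description with no test. Of all tested genes, 6.34% in eWAT and 3.51% in iWAT had such a difference called. Relative to the mean of Cont siNS, Adcyap1r1 stood in eWAT at 16.3% in aKO siC/EBPb, 19.4% in aKO siNS and 52.4% in Cont siC/EBPb.

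**Figure D2:**
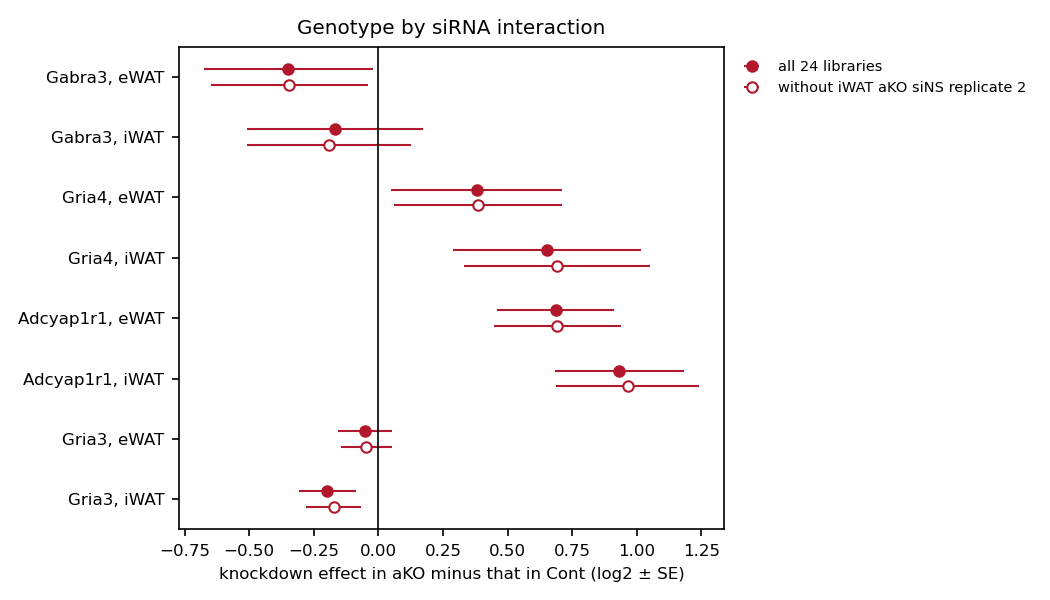
Difference between the aKO and the Cont response to siC/EBPb for each gene and depot (x axis, log2 ± SE; filled circles, all 24 libraries; open circles, without iWAT aKO siNS replicate 2). The siNS genotype difference used to choose the genes is a term of each value. Adcyap1r1 lies above 0 in both depots, at 0.69 in eWAT and 0.93 in iWAT with all libraries, and Gabra3 lies below 0 with an error that reaches near or over 0.

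Gria3, the other AMPA receptor subunit, did not share this pattern. With siC/EBPb it was at 108, 96.2 and 118 CPM in eWAT aKO and at 96.4, 96.6 and 99.1 CPM in eWAT Cont. In iWAT with siC/EBPb it was at 104, 94.0 and 112 CPM in aKO and at 87.6, 92.3 and 85.1 CPM in Cont. The eWAT groups overlapped and the iWAT groups did not. The log2 fold changes of aKO over Cont were 0.14 ± 0.074 and 0.22 ± 0.076, and neither passed the threshold (edgeR QL adjusted p = 0.291 and 0.0599), with 95% intervals from -0.01 to 0.29 and from 0.07 to 0.38. The iWAT value lay near the threshold and passed it in a fit without the shallow library (0.23, edgeR QL adjusted p = 0.0227), in a fit of the contrast's own groups (0.22, 0.0191) and without iWAT aKO siC/EBPb replicate 2 (0.28, 0.0306). Of all tested genes, 3.90% in eWAT and 3.52% in iWAT were called higher in aKO under siC/EBPb.

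With siNS, Gria3 was at 101, 105 and 105 CPM in eWAT aKO and at 88.2, 86.6 and 97.8 CPM in eWAT Cont. In iWAT it was at 108, 119 and 113 CPM in aKO, with 119 from 60 counts of the shallow library, and at 77.1, 82.4 and 90.6 CPM in Cont. The genotypes were apart in both depots, with log2 fold changes of 0.19 and 0.42, given with no test. The responses of Gria3 to siC/EBPb were 0.05 ± 0.074 in eWAT aKO, -0.11 ± 0.081 in iWAT aKO, 0.10 ± 0.075 in eWAT Cont and 0.09 ± 0.077 in iWAT Cont (adjusted p of the edgeR QL test from 0.339 to 0.665). Over these 4 contrasts the 95% intervals of its response ran from -0.28 to 0.25.

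**Figure D3:**
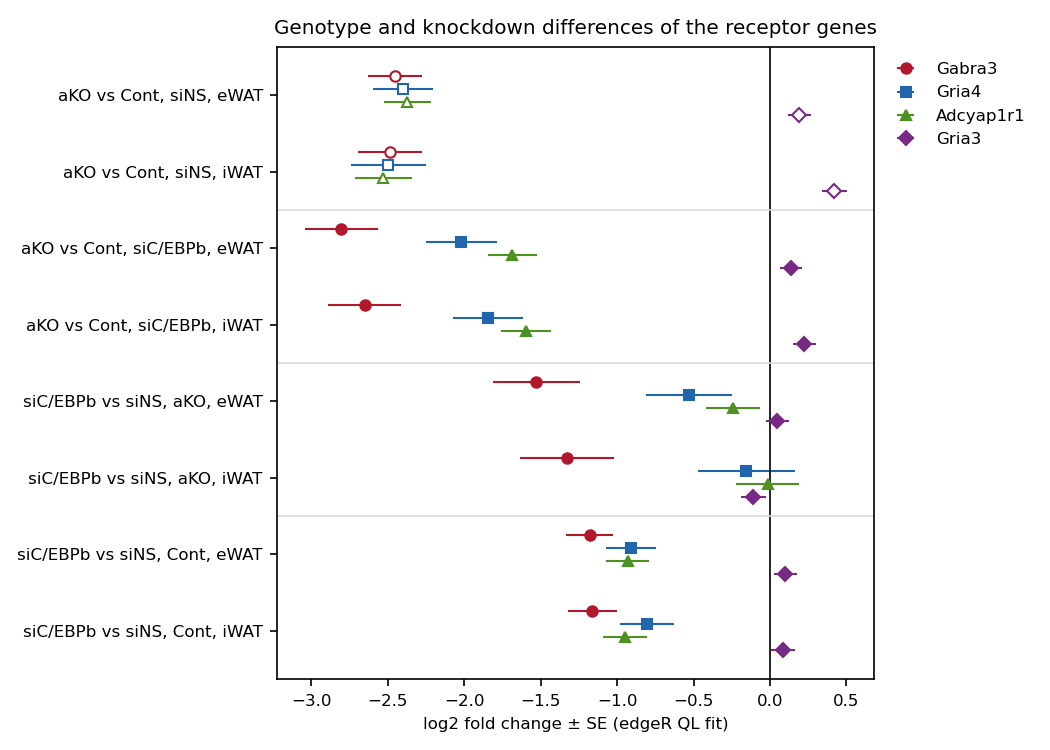
Log2 fold changes ± SE of the 4 genes in the genotype contrasts (upper rows) and the siC/EBPb contrasts (lower rows), with open symbols for the siNS genotype contrasts on which the genes were chosen. Gabra3, Gria4 and Adcyap1r1 lie between -1.60 and -2.80 in the siC/EBPb genotype contrasts, and Gria3 stays between -0.11 and 0.42 in each row.

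Per kilobase of exon, the order of the 4 genes depended on genotype and siRNA. In eWAT aKO siC/EBPb, Gria3 led with 10.9 CPM per kb, followed by Adcyap1r1 with 2.53, Gabra3 with 0.295 and Gria4 with 0.270, and the libraries of Gabra3 and Gria4 overlapped there. In eWAT aKO siNS the levels in the same order were 10.5, 3.01, 0.853 and 0.388 CPM per kb. In eWAT Cont siC/EBPb they were 9.88, 8.16, 2.07 and 1.10 CPM per kb. In eWAT Cont siNS Adcyap1r1 was ahead of Gria3, with 15.6 and 9.22 CPM per kb, and Gabra3 and Gria4 followed with 4.70 and 2.08. In iWAT Cont siNS the order was the same, with 15.5, 8.46, 5.20 and 2.13 CPM per kb.

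The depot made no difference to these genes that the tests could call. For iWAT over eWAT with siNS, log2 fold changes in aKO were 0.11 for Gabra3, -0.08 for Gria4, -0.17 for Adcyap1r1 and 0.10 for Gria3, and in Cont they were 0.14, 0.02, -0.01 and -0.13. By the edgeR QL test 0 of 4 were called in either genotype, 0 of 4 had an unadjusted p under 0.05 and DESeq2 called 0 of 4. Of all genes, 0.352% were called in aKO and 1.20% in Cont. The genotype difference in iWAT minus that in eWAT was 0.15 for Gabra3, 0.18 for Gria4, 0.09 for Adcyap1r1 and 0.09 for Gria3 under siC/EBPb. By the edgeR QL test 0 of 4 were called, 0 of 4 had an unadjusted p under 0.05 and DESeq2 called 0 of 4. With siNS, where both terms were used to choose the genes, it was -0.03, -0.10, -0.16 and 0.23, given with no test. Among all genes edgeR QL called 0% with siNS, where 415 genes had an unadjusted p under 0.05 and DESeq2 called 0, and 0.00676% with siC/EBPb, which is 1 gene.

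Across the 23 libraries other than the shallow one, log2 CPM of Gria4 and Adcyap1r1 had a Pearson r of 0.973, Gabra3 and Gria4 0.950 and Gabra3 and Adcyap1r1 0.933. Gria3 had r of -0.712 with Gabra3, -0.709 with Gria4 and -0.752 with Adcyap1r1. These correlations describe libraries that share 8 groups and carry no test. The gene most like Gabra3 was Ero1l, an oxidase of the endoplasmic reticulum (r = 0.978), followed by Frzb, a secreted Wnt antagonist (0.972), and Adora2b, an adenosine receptor that raises cAMP (0.971). Gria4 was most like Adcyap1r1, followed by the growth factor gene Fgf2 (0.968) and Raph1, which encodes the actin regulator lamellipodin (0.962). Adcyap1r1 was most like Raph1 (0.983), then Gria4 and Ccbe1 (0.959), a gene needed for lymphatic vessel growth. Gria3 was most like Lrp11 (0.891), Lacc1 (0.866) and Gclc, which encodes the catalytic subunit of the rate-limiting enzyme of glutathione synthesis (0.865).

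The subunits that could join these receptors were mostly scarce. Of the other AMPA subunits, Gria1 had 57 counts and Gria2 had 3 over all 24 libraries, too few to test, so Gria3 and Gria4 were the AMPA subunits with measurable reads. Of 18 other GABA-A subunits 15 had a count and 4 were tested. Gabrb1, the beta1 subunit, rose in aKO under siC/EBPb by 0.69 ± 0.14 in eWAT and 0.70 ± 0.14 in iWAT (edgeR QL adjusted p = 0.00104 and 0.00104), at 7.02 ± 0.103 CPM in eWAT aKO and 4.35 ± 0.301 CPM in eWAT Cont (mean ± SD). Gabrb1 and Gabra3 had opposite signs in that contrast.

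Auxiliary proteins hold AMPA receptors at the membrane and set their gating. Of 13 tested genes of that kind, 1 rose in aKO under siC/EBPb in eWAT and 2 in iWAT, none fell, and without the shallow library 2 and 3 rose. Of all tested genes 3.90% and 3.52% were called higher there, and 869 and 900 of 14785 without the shallow library. The median log2 fold change of the list was 0.10 in eWAT and 0.06 in iWAT, against -0.00202 and -0.00160 over all tested genes. Cacng7, a transmembrane AMPA receptor regulatory protein, was at 79.2 ± 7.96 CPM in eWAT aKO and 61.8 ± 3.90 CPM in eWAT Cont. It rose in both depots (0.36 ± 0.086 and 0.38 ± 0.090, edgeR QL adjusted p = 0.00580 and 0.00586), though each call was lost without 1 library, eWAT aKO siC/EBPb replicate 2 (0.0519) or iWAT Cont siC/EBPb replicate 3 (0.0514). Of 9 tested genes of glutamate transport and metabolism, 1 rose in each genotype contrast, and 2 did without the shallow library, where 1 also fell in eWAT under siC/EBPb. With siNS 9.50% and 7.32% of all tested genes were called higher in eWAT and iWAT aKO, and 1745 and 1338 of 14785 without that library. Slc1a3, a glutamate uptake transporter, rose in aKO by 0.41 ± 0.096 and 0.49 ± 0.099 under siC/EBPb (edgeR QL adjusted p = 0.00420 and 0.00116) and by 1.02 ± 0.086 and 1.08 ± 0.097 with siNS (1.20e-09 and 6.52e-09).

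For PACAP signalling, the other receptors and both ligands had few reads. Vipr1 had 56 counts and Vipr2 62 over the 24 libraries, the PACAP gene Adcyap1 had 1 and Vip had 0. Adcyap1r1 was thus the receptor of this ligand family with measurable reads. Of 22 tested genes of the cAMP pathway downstream, in eWAT aKO under siC/EBPb 3 rose (Adcy2, Prkar2a and Rapgef3) and 0 fell. The call on Rapgef3 was lost without eWAT Cont siC/EBPb replicate 2 (0.0658), without eWAT aKO siC/EBPb replicate 1 (0.0735) and with DESeq2 (0.198). In iWAT aKO, 2 were higher and 2 lower, and Prkar2a, one of the higher, lost its call without any 1 of 5 libraries (adjusted p from 0.0629 to 0.252) and with DESeq2 (0.0540). The fit that left out the shallow library called 5 higher and 2 lower in eWAT, and 2 higher and 4 lower in iWAT. With all libraries 3.90% and 3.52% of all tested genes were called higher in eWAT and iWAT, and 6.87% and 6.51% lower. Without the shallow library 869 of 14785 tested genes were called higher and 1292 lower in eWAT, and 900 and 1130 in iWAT. Adcy2, an adenylyl cyclase, rose by 0.93 ± 0.15 and 1.01 ± 0.16 (edgeR QL adjusted p = 7.41e-05 and 5.62e-05), at 11.1 ± 1.61 CPM in eWAT aKO and 5.81 ± 0.817 CPM in eWAT Cont. Gnas, the gene of the Gs alpha subunit and the most expressed of the list, was at 949 ± 13.6 CPM in eWAT aKO and 950.0 ± 14.5 CPM in eWAT Cont (log2 fold change -0.00206 ± 0.11).

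**Figure D4:**
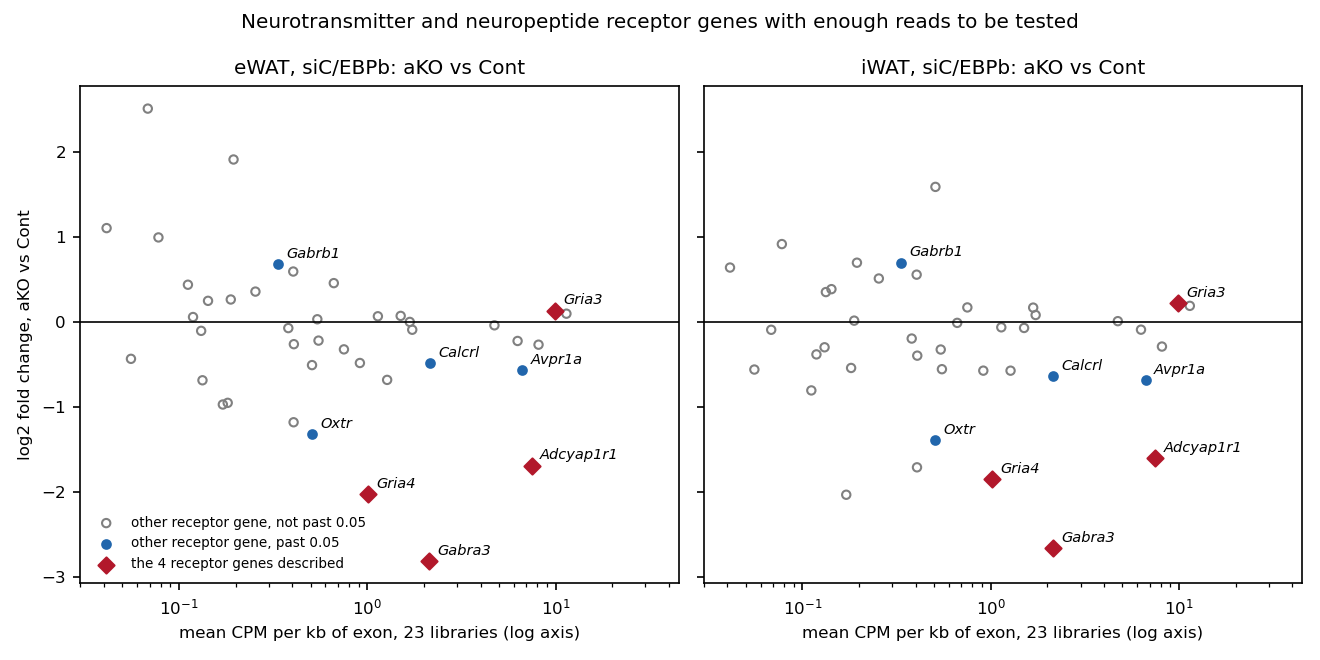
Tested receptor genes of neurotransmitters and neuropeptides, with 1 left out, by mean level (x axis, CPM per kb over 23 libraries, log axis) and log2 fold change of aKO over Cont under siC/EBPb (y axis) in eWAT (left) and iWAT (right). Gabra3, Gria4 and Adcyap1r1, marked with Gria3 by diamonds, lie between -1.60 and -2.80, and the other called genes plotted lie between -1.38 and 0.70.

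Among 165 other receptor genes of neurotransmitters and neuropeptides, 38 were tested. Under siC/EBPb 1 of these rose and 4 fell in eWAT aKO, and 1 rose and 3 fell in iWAT aKO, where 3.90% and 3.52% of all tested genes were called higher and 6.87% and 6.51% lower. Without the shallow library 7 fell in eWAT and 4 in iWAT, where 1292 and 1130 of 14785 tested genes were called lower. With siNS 5 rose and 11 fell in eWAT aKO, and 3 rose and 7 fell in iWAT aKO. With siC/EBPb against siNS, 8 rose and 14 fell in eWAT aKO, 9 and 14 in iWAT aKO, 6 and 14 in eWAT Cont and 6 and 10 in iWAT Cont. Falls outnumbered rises in each of the 8 contrasts among these genes, and they also did so among all tested genes. With siNS, 10.9% and 7.85% of all tested genes were called lower in eWAT and iWAT aKO, and 9.50% and 7.32% higher. With siC/EBPb against siNS, in the order above, 19.1%, 17.7%, 14.9% and 14.0% of all tested genes were called lower. Called higher were 16.6%, 13.6%, 11.8% and 10.3%. For aKO over Cont under siC/EBPb, the median log2 fold change of the 38 was -0.08 in eWAT and -0.09 in iWAT. The medians of all tested genes were near 0. Avpr1a, a vasopressin receptor gene, fell in both depots (-0.56 ± 0.13 and -0.68 ± 0.15, edgeR QL adjusted p = 0.00368 and 0.00202) and was at 11.2 ± 1.63 CPM in eWAT aKO and 16.6 ± 1.13 CPM in eWAT Cont. Oxtr, the oxytocin receptor gene, fell by 1.31 ± 0.34 and 1.38 ± 0.34 on the log2 scale (edgeR QL adjusted p = 0.00901 and 0.00620), a call lost without eWAT aKO siC/EBPb replicate 1 (0.0734) or iWAT Cont siC/EBPb replicate 1 (0.0557). Calcrl, a receptor gene for CGRP and adrenomedullin, fell by 0.63 ± 0.14 in iWAT (edgeR QL adjusted p = 0.00370). In eWAT it fell by 0.48 ± 0.14 (edgeR QL adjusted p = 0.0288), a call lost without any 1 of 4 libraries, Cont siC/EBPb replicate 2 or 3 or aKO siC/EBPb replicate 1 or 2 (0.0899, 0.0754, 0.138 and 0.0894). Adrb3, the beta3 adrenergic receptor gene of fat cells, was at -0.22 ± 0.29 and -0.08 ± 0.33 (edgeR QL adjusted p = 0.756 and 0.940). Whether the falls of Gabra3, Gria4 and Adcyap1r1 differ from those of other receptor genes was not tested.

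The cell types these cultures could hold were read from marker genes. Each of 10 adipocyte markers had counts in these cultures, and they summed to 649 to 1233 CPM in eWAT aKO siC/EBPb, 2458 to 2716 in aKO siNS, 926 to 1300 in Cont siC/EBPb and 1705 to 2244 in Cont siNS. Fibroblast and progenitor markers summed to 41617 to 48815 CPM in eWAT, mostly from Col1a1, Col3a1 and Fn1. Under siC/EBPb 1 of these 10 markers rose in aKO and 2 fell in each depot, and the fit without the shallow library called 2 higher and 4 lower in eWAT, and 2 higher and 3 lower in iWAT. With all libraries 3.90% and 3.52% of all tested genes were called higher in eWAT and iWAT, and 6.87% and 6.51% lower. The fit without the shallow library called 869 of 14785 higher and 1292 lower in eWAT, and 900 and 1130 in iWAT. The progenitor markers Dpp4 and Pi16 fell by 2.77 ± 0.35 and 1.01 ± 0.26 in eWAT (edgeR QL adjusted p = 2.63e-06 and 0.0123), and Thy1 rose by 0.43 ± 0.081 (0.000558). With siNS, Dpp4 also fell in both depots, while 4 of the 10 rose. Among neuron markers, Rbfox3, Snap25, Syt1, Stmn2, Elavl3 and Elavl4 had 2 to 69 counts each over the 24 libraries, and among glial markers Sox10, Foxd3, Gfap and Pmp2 had 2 to 21. The defining genes of neurons and glia were thus near 0. Tubb3, Uchl1 and Nefm carried most of the summed level of the neuron list. In eWAT that sum was 99.4 to 120 CPM in aKO siC/EBPb, 54.6 to 57.0 in aKO siNS, 85.1 to 97.1 in Cont siC/EBPb and 63.9 to 68.8 in Cont siNS. It was thus higher in eWAT aKO under siC/EBPb and lower in eWAT aKO with siNS. In iWAT the sum was 87.2 to 112 CPM in aKO siC/EBPb and 76.4 to 80.9 in Cont siC/EBPb. With siNS the iWAT genotypes overlapped, at 48.6 to 65.3 CPM in aKO, the shallow library included, and 53.5 to 68.8 in Cont. The part of neurons in the levels of the receptor genes was not tested.

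Leukocyte, mesothelial and endothelial markers also moved with genotype. Of all tested genes, 6.87% in eWAT and 6.51% in iWAT were called lower in aKO under siC/EBPb, and 10.9% and 7.85% with siNS. With siC/EBPb against siNS, 19.1% and 17.7% were called lower in eWAT and iWAT aKO, and 14.9% and 14.0% in Cont. Of 8 tested leukocyte markers, 8 fell in eWAT and 7 in iWAT under siC/EBPb, and 5 and 3 with siNS, and all 8 fell with siC/EBPb in each genotype and depot (Cd3e was at 0). Their sum in eWAT was 77.0 to 165 CPM in aKO siC/EBPb, 1358 to 1420 in aKO siNS, 279 to 325 in Cont siC/EBPb and 1624 to 2237 in Cont siNS. Of 6 tested mesothelial markers, 5 fell under siC/EBPb and 3 with siNS in each depot, and their list's sum in eWAT was 6.81 to 7.90 CPM in aKO siC/EBPb, 6.09 to 7.84 in aKO siNS, 28.0 to 30.2 in Cont siC/EBPb and 26.0 to 26.4 in Cont siNS. Wt1 made up most of that sum in Cont siNS, and without it the range was 5.63 to 6.06, 4.33 to 6.41, 11.8 to 16.4 and 10.5 to 11.8 CPM in the same groups. The defining mesothelial gene Msln had 34 counts in all. Endothelial markers fell in 3 of 7 tested in eWAT and 5 in iWAT under siC/EBPb, with sums of 27.0 to 29.2 CPM in eWAT aKO siC/EBPb and 37.4 to 40.3 in eWAT Cont siC/EBPb. The part of these cells and of the progenitor markers in the levels of Gabra3, Gria4 and Adcyap1r1 was not tested.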

How the data were processed

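RNA of 24 adipocyte cultures was read with a directional library kit, per the labels' protocols. The authors deposited 1 table of raw read counts per gene for all samples, which was used here. The submitters' processing notes name CASAVA, cutadapt 2.7, TopHat2 2.1.1, HTSeq, edgeR and the build GRCm38, and no source used here says how the counting treated strand. The deposited files of single samples hold the same counts divided by 1 constant per library (largest gap 8.09e-05 counts) and were not used. The 5 counter lines of the table, 27.5% to 39.5% of listed reads (95.9% in iWAT aKO siNS replicate 2), stayed out of library sizes.

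Genes were kept with edgeR 4.0.16's filterByExpr (minimum count 10, 8 groups), which left 14785. A quasi-likelihood model with 1 mean per group was fitted to all 24 libraries after TMM scaling, in R 4.3.3, with Benjamini-Hochberg adjustment over all tested genes in each contrast and a threshold of 0.05. The script was tested on simulated data. Standard errors are the log2 fold change divided by the square root of F. Alternatives were DESeq2 1.42.0, its size factors, no filter, a stricter filter (CPM of 1 in 12 libraries), the contrast's groups alone, a replicate block, and each library left out.

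The genes and all gene lists were chosen with earlier results of these data known. The text names these genes, Cebpb and Senp2, from each list up to 6 called genes with the smallest p under siC/EBPb in eWAT and the 4 most expressed, and the 3 genes most correlated with each. Other names are single calls, or markers at few counts, named after their values were seen.

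Replicate numbers were checked for pairing by correlating deviations from group means over 8159 genes, without the shallow library. Between depots 10 of 11 pairs were over 0.1 (0.0796 to 0.748), and for Cont siNS all 3 were (0.270 to 0.425). A block across depots, added after seeing the data, changed no call on the 4 genes. Results of single genes of the lists that are not named are counted in their lists and not reported here.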

Additional observations from a re-analysis of the deposited data

Results flagged for a closer look

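The response of Adcyap1r1 to siC/EBPb in iWAT had a difference of 0.93 ± 0.25 on the log2 scale (aKO minus Cont). It was flagged because the edgeR QL test of that difference passed the threshold. That call was lost with a replicate block within depot and without single libraries from every group of the contrast. In iWAT aKO it was at 21.5, 14.5 and 16.4 CPM with siC/EBPb and at 18.2, 23.7 and 16.7 CPM with siNS. In iWAT Cont it was at 50.1, 52.3 and 55.9 CPM with siC/EBPb and at 90.1, 95.4 and 121 CPM with siNS. The siNS genotype difference on which the gene was chosen is one of the terms, so the flag does not count as a test. The value is a description and no p is given. It ranged from 0.75 to 1.06 with single libraries left out.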

How the results depend on the processing

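In contrasts without the siNS genotype difference as a term, alternatives removed 1 call on Gabra3 and added 3 on Gria3. The calls on Gria4 and Adcyap1r1 did not change there, and 0 calls reversed. Genotype by siRNA and genotype by depot with siNS hold that difference as a term, so no calls are counted for them. With no filter on low counts Adcyap1r1 by genotype and siRNA in eWAT was at 0.70, and the genes called numbered 921 for genotype by siRNA in iWAT, 542 and 138 for iWAT against eWAT in Cont and aKO, and 18 and 2 for genotype by depot with siNS and siC/EBPb. With the groups of a contrast alone Gria3 passed in iWAT under siC/EBPb (0.22, edgeR QL adjusted p = 0.0191), and 743 genes were called for aKO against Cont with siNS in iWAT, 2374 for siC/EBPb in iWAT aKO, 290 for genotype by siRNA in iWAT, 709 and 0 for the depots in Cont and aKO, and 0 for genotype by depot with siC/EBPb. The fit of all groups called 2243, 4624, 519, 178, 52 and 1. Without the shallow library in the whole fit, Gria3 passed in iWAT under siC/EBPb (0.23, edgeR QL adjusted p = 0.0227), and 1690 genes were called for genotype by siRNA in eWAT, against 938 with all libraries, and 1144 for the depots in Cont. DESeq2 called 88 for the depots in aKO and 0 for genotype by depot with siC/EBPb.

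Same-numbered libraries did not deviate together across genotype (1 of 11 pairs over 0.1, from -0.504 to 0.139) or siRNA (1 of 11, from -0.241 to 0.123), so they share only a number there. A replicate block within depot gave 0.97 for Adcyap1r1 by genotype and siRNA in iWAT, 113 and 14 genes for the depots in Cont and aKO and 0 for genotype by depot with siC/EBPb, and changed no call of the other contrasts on the 4 genes.

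With single libraries left out, genes called ranged from 451 to 1105 and from 289 to 938 for genotype by siRNA in eWAT and iWAT, from 31 to 210 and from 1 to 776 for the depots in Cont and aKO, from 0 to 1 for genotype by depot with siC/EBPb, from 1439 to 2750 for genotype with siNS in iWAT and from 945 to 1238 with siC/EBPb, where all libraries gave 1483. Adcyap1r1 by genotype and siRNA in iWAT ranged from 0.75 to 1.06, Gria3 by genotype under siC/EBPb in iWAT from 0.16 to 0.28, and Gabra3 with siC/EBPb in iWAT aKO from -1.54 to -0.93. Where a call changed, the cause was not tested. Depth limits Gabra3 and Gria4 in aKO, where single libraries hold few counts.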

Other observations

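Htr2a, a serotonin receptor gene of the same lists, rose with siC/EBPb in aKO by 0.84 in eWAT and 0.78 in iWAT on the log2 scale. In Cont it rose by 0.64 in eWAT and 0.69 in iWAT. The direction was opposite to that of Gabra3 and of most called genes among the 38 other receptor genes. Of the 38, 14 fell and 8 rose in eWAT aKO, and 14 fell and 9 rose in iWAT aKO. In Cont 14 fell and 6 rose in eWAT, and 10 fell and 6 rose in iWAT. Falls also outnumbered rises among all tested genes in each of these contrasts. Adra2a, an adrenergic receptor gene that couples to Gi, fell in aKO with siNS by 1.36 in eWAT and 1.41 in iWAT (edgeR QL adjusted p = 1.01e-06 and 2.62e-05). Under siC/EBPb Adra2a stood at -0.09 and 0.09 (edgeR QL adjusted p = 0.854 and 0.876). The genotype difference of Adra2a under siC/EBPb minus that with siNS was 1.28 ± 0.25 in eWAT and 1.501 ± 0.28 in iWAT (edgeR QL adjusted p = 0.00181 and 0.00213).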
